A study of Mus musculus with 6 samples.

Results

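Dense, unmethylated CpG islands of the mouse autosomes were followed through the growth of dendritic cells from bone marrow. Reduced representation bisulfite sequencing (RRBS), which reads cytosines near the cut sites of restriction enzymes, was done on 6 samples of C57BL/6J mice, all labelled male. Day 0 is bone marrow before culture (2 samples, numbered 2 and 3), day 4 is the culture labelled Common Myeloid Progenitor (2 samples, numbered 1 and 2), and day 7 is the culture labelled Bone-marrow Derived Dendritic Cell (2 samples, numbered 1 and 4). All cultures had Flt3L, a cytokine that drives dendritic cell growth from marrow, supplied as the supernatant of a transfected SP2/0 line, and the assay does not measure the markers that would check these cell names. An island here is an autosomal run of at least 20 listed cytosines whose neighbours lie at most 100 bp apart, with at least 10 summed reads in each of the 6 samples and a methylation level below 20% in both day 0 samples. The level of a run is its methylated reads divided by all its reads. There were 1984 such islands of 69246 runs of at least 3 cytosines on any chromosome, and they held 52855 cytosines, 8.23% of those listed on autosomes. Of the 2035 autosomal runs of at least 20 cytosines, 51 were left out because they were not below 20% in both day 0 samples.

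CpG islands are stretches in which the CpG pair, lost from most of the genome, has been kept. Most lie at gene starts, are bound by transcription machinery and proteins that recognise unmethylated CpG, and stay unmethylated in most cell types whether or not the gene is active. Their borders, called shores, pass into the methylated bulk of the genome, and methylation of a whole island is known from imprinted genes, the inactive X chromosome and long-term silencing.

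Total reads on listed cytosines ranged from 3641141 in day 7 sample 4 to 10242334 in day 4 sample 1. Median reads per island were 403 and 314 (day 0), 420 and 270 (day 4) and 330 and 132 (day 7), so day 7 sample 4 gave the least precise island levels. The day 7 libraries stood apart in a way that touches the label of sex. Reads per listed cytosine on the X chromosome relative to autosomes were 0.667 and 0.650 in the day 0 samples, 0.684 and 0.688 in those of day 4 and 1.01 and 1.07 in those of day 7. The 12 X runs that meet the same rule had mean levels of 0.925% and 1.01% (day 0), 1.42% and 0.919% (day 4) and 20.1% and 19.7% (day 7). A difference between the animals or cultures behind day 7 and the other days cannot be told apart from the day. Whether the samples of a day are separate animals or cultures is not in the labels; p-values therefore reflect how far these samples scatter, and that scatter may be technical only.

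The islands had a median of 24 cytosines (20 to 374) over a median span of 309.5 bp, or 8.54 listed cytosines per 100 bp. They lay on all 19 autosomes, from 59 on chromosome 16 to 170 on chromosome 11, and took 2.58% to 3.31% of each chromosome's runs of at least 3 cytosines. By size, 1493 islands had 20 to 29 cytosines, 366 had 30 to 39, 96 had 40 to 49, 27 had 50 to 99 and 2 had more.

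The files carry no gene names, so RefSeq promoter windows of the GRCm38.p6 build, each 300 bases from 250 before to 50 after a gene start, were matched to islands by the spacing of their CpGs, with no coordinate carried between builds. At least 12 listed cytosines had to fall on CpGs of the window and none outside them. In this way 639 islands (32.2%) were matched to 711 genes, and 79 of these islands were matched to genes on both strands. The matched windows held a median of 34 CpGs, against 7 over all promoters in the table. The letters CCGG, the cut site of MspI, stood in 99.9% of the matched windows and in 52.8% of all promoters, and MspI was one of the enzymes used. The TaqI site TCGA stood in 23.9% and 22.0%, the GC box core GGGCGG in 83.1% and 35.7%, CCAAT in 35.4% and 37.4%, and TATAAA in 4.10% and 13.6%, each searched on both strands of the window. These shares describe letters in CpG-rich windows and are not binding sites.

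A few promoters carry the results that follow, and their 250 bases before the gene start are shown 5′ to 3′ on the gene's strand, with each CpG that the methylation table lists in capitals. Batf3, a transcription factor needed for the conventional dendritic cells that cross-present antigen, and Nfkb2, a subunit of NF-kappaB, are shown as immune promoters at low levels in all 6 samples. Frat2, which binds the kinase GSK3, and Unc5c, a receptor for the guidance factor netrin, are shown because their islands passed a test for a higher level at day 7 than at day 4. Tasor, a subunit of the HUSH silencing complex, Nbl1, a secreted antagonist of BMP signals, and Gbx2, a homeobox factor of hindbrain patterning, are shown because one side of each island is methylated. Much of that side lies further upstream than the printed bases. In the printed Gbx2 bases every listed CpG stood at 6.41% or less over the 6 samples together.
Batf3, chromosome 1, + strand: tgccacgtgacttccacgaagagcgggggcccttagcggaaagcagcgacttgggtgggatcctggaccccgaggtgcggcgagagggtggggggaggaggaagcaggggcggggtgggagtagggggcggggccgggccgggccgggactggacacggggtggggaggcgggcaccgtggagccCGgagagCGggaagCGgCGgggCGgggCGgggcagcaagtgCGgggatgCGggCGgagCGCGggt
Nfkb2, chromosome 19, + strand: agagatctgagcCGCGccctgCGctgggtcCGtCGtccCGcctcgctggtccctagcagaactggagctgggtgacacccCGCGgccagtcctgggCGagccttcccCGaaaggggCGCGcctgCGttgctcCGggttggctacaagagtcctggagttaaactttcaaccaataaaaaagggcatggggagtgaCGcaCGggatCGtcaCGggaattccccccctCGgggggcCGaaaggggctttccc
Frat2, chromosome 19, - strand: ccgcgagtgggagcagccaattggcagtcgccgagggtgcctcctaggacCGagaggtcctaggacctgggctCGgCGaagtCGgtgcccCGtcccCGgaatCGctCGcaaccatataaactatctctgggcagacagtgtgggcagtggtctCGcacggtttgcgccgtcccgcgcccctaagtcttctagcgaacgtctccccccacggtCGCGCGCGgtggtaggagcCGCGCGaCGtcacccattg
Unc5c, chromosome 3, + strand: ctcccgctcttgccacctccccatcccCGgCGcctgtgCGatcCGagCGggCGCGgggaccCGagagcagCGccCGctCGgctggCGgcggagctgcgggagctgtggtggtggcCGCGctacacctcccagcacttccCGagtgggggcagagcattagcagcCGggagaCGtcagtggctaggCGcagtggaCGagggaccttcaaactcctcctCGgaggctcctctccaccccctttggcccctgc
Tasor, chromosome 14, + strand: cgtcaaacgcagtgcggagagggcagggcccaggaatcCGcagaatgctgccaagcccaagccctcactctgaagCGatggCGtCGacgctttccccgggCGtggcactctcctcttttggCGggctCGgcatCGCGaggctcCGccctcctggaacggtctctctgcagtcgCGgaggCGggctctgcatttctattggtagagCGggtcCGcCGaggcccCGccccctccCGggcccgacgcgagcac
Nbl1, chromosome 4, - strand: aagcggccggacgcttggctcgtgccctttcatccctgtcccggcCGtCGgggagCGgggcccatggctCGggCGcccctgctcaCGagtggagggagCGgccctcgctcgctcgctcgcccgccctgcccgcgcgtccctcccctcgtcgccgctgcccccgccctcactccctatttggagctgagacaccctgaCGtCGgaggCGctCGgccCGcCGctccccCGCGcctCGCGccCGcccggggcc
Gbx2, chromosome 1, - strand: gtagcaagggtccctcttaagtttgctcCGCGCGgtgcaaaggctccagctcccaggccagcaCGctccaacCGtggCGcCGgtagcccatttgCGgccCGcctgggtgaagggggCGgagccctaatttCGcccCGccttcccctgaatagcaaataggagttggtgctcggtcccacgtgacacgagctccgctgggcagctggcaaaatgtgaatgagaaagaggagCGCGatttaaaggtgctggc

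The islands stayed near 0 in all 3 stages. The mean level over islands was 0.949% and 1.17% in the day 0 samples, 1.21% and 1.06% in those of day 4 and 2.31% and 2.10% in those of day 7. The medians were 0.472% and 0.729% (day 0), 0.715% and 0.541% (day 4) and 1.84% and 1.52% (day 7). Of the 1984 islands, 1783 were below 5% in every sample. Islands above 10% numbered 21 and 25 in the day 0 samples, 26 and 25 in those of day 4 and 32 and 40 in those of day 7. The day 0 values were used to choose the islands and are a description; the later days were not used.

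Between the later days the mean level was 2.20% ± 0.147 in day 7 cultures and 1.13% ± 0.106 in day 4 cultures (SD, n = 2 each), a difference of 1.07 points. Each day 7 value exceeded each day 4 value, and the exact two-sided permutation p was 0.333, the smallest that 2 against 2 allows. The difference was spread over the islands: the median island was 0.970 points higher, and the quartiles were 0.469 and 1.54 points higher. Over all 56105 runs tested the median was 0.958 points. Both day 7 samples were above both day 4 samples in 1128 islands (56.9%), and below both in 29 (1.46%). Over all runs the background shares were 24.4% above and 10.3% below. Of those runs, 31542 were autosomal and at 20% or more in both day 0 samples, so all runs differ from the islands in starting level. Shorter autosomal runs chosen by the same day 0 levels and reads were also higher at day 7 than at day 4. Their mean differences were 1.08 points for 15 to 19 cytosines up to 1.56 points for 3 to 4. A higher level at day 7 was therefore not particular to the dense islands.

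The difference appeared at low and at higher starting levels. Islands with a day 0 mean under 0.25% averaged 1.58% at day 7 and 0.570% at day 4, a difference of 1.01 points. Those between 5% and 20% at day 0 averaged 11.5% at day 7 and 9.94% at day 4, a difference of 1.54 points. By number of cytosines the difference was 0.975 to 1.13 points, by cytosines per 100 bp 0.955 to 1.23 points, and by chromosome 0.755 points (chromosome 12) to 1.21 points (chromosome 7). The 31 listed mitochondrial cytosines moved alongside: their level was 0.547% and 0.490% (day 0), 1.17% and 0.664% (day 4) and 2.27% and 1.76% (day 7). The part of the mitochondrial values in the island difference was not tested.

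**Figure D1:**
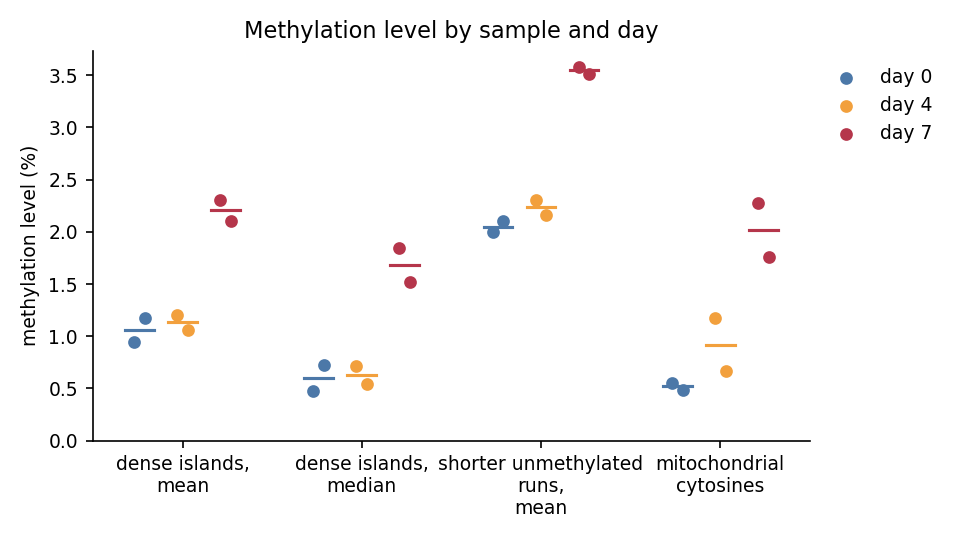
Methylation level in percent for each sample (points) with the mean of each day (lines), for the mean and median of the 1984 dense islands, the mean of 21460 shorter unmethylated runs and the pooled mitochondrial cytosines. In each set both day 7 points lie above both day 4 points.

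No island was called at a change of 20 points. Reads of each run were tested with the likelihood ratio test of edgeR and adjusted by the Benjamini-Hochberg method over 56105 runs, and a call needed an adjusted p below 0.05 and a difference of at least 20 points. Day 7 against day 4 gave 0 island calls, where 0.451% of all runs were called. With autosomes alone in the fit it also gave 0 island calls, against 0.0181% of all runs. At an unadjusted p below 0.05 there were 530 islands (26.7%), against 11.4% of all runs. With at least 50 reads per run and sample these shares were 30.2% of islands and 22.1% of all runs. Day 4 against day 0 gave 0 island calls, against 0.00178% of all runs, and 100 islands (5.04%) at an unadjusted p below 0.05, against 6.6% of all runs. Day 7 against day 0 gave 0 island calls, against 0.497% of all runs, and 609 islands (30.7%) at an unadjusted p below 0.05, against 12.9% of all runs. The quasi-likelihood version of edgeR's test also gave 0 for each comparison, and limma and the pooled reads of each day under Fisher's exact test gave 0 for day 7 against day 4. The comparisons with day 0 share the samples that chose the islands, and nothing is read from their counts. Islands were chosen below 20% at day 0, so no fall of 20 points from day 0 was possible. The highest island level in the day 4 samples was 22.8% and 23.2%, so such a fall from day 4 was nearly shut out too. The 0 calls therefore follow in part from the choice of islands.

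With no minimum difference, 20 islands (1.01%) passed for day 7 against day 4, all of them higher at day 7; 0.729% of all runs passed in either direction and 0.658% were higher. The island share is near this background, which includes runs outside the autosomes. With autosomes alone in the fit, 4 islands (0.202%) passed, against 0.0363% of all runs. The 20 rises ran from 1.39 to 9.59 points with a median of 2.73 points, and in 19 each day 7 sample exceeded each day 4 sample. None of the 20 stayed called in all 6 fits that left out a sample. Of the 20, 1 passed without day 4 sample 1, 4 without day 4 sample 2, 3 without day 7 sample 1 and 14 without day 7 sample 4, while all 20 passed without either day 0 sample. With limma 1 island was called (0.0504%, against 0.123% of all runs), and with edgeR's quasi-likelihood test 8 (0.403% against 0.383%). With autosomes alone in the fit it was 4, as above. With at least 50 reads per run and sample it was 80 (4.13% against 3.17%). With the pooled reads of each day under Fisher's exact test it was 123 (6.2% against 2.49%). For day 7 against day 0, 34 islands (1.71%, against 0.838% of all runs) passed with no minimum, and 4 of the 20 were among them; for day 4 against day 0, 0 passed, against 0.00356% of all runs.

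The largest called rise was at chr4:53726908-53727253 (mm9), an island of 22 cytosines with no matched promoter. Its level was 2.74% and 6.29% in the day 0 samples, 2.28% and 2.75% in those of day 4 and 11.6% and 12.6% in those of day 7. The day 7 samples lay above all others, with a difference from day 4 of 9.59 points and an adjusted p of 0.0358 by edgeR. Without each sample of days 4 and 7 in turn, the adjusted p was 0.09 to 0.346. At chr1:9535882-9536219 the level was 0.198% and 0% (day 0), 0.317% and 0.583% (day 4) and 4.65% and 6.78% (day 7) (edgeR adjusted p = 0.00137, and 0.157 without day 4 sample 1). At chr1:16095519-16095876 neither day 4 sample had a methylated read among 517 and 397, which allows levels up to 0.58% and 0.756%, and the day 7 samples had 3.14% and 3.5% (edgeR adjusted p = 0.000129, and 0.0593 without day 4 sample 1).

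Other calls rested on a single library. At chr9:54829330-54829456 the day 7 level was 11% in sample 1 and 1.11% in sample 4, against 0.463% and 0.273% at day 4. The edgeR adjusted p was 0.00099 with all samples, and 0.783 without day 7 sample 1. At chr13:99125263-99125531 the day 7 levels were 10.4% and 2.45%, against 0% and 0.362% at day 4 (edgeR adjusted p = 0.00151, and 0.305 without day 7 sample 1). At chr16:17201327-17201647 day 7 sample 1 had 3.01% and day 7 sample 4 had 0 of 43 reads, which allows up to 6.98%, while both day 4 samples had 0 (edgeR adjusted p = 0.00593, with no difference left without day 7 sample 1).

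Of the 20 called islands, 4 were matched to promoters. The Frat2 island, at chr19:41922602-41923193, had 2.48% and 2.66% at day 7, against 0% (0 of 621 reads, up to 0.483%) and 0.227% at day 4 (edgeR adjusted p = 0.00704, and 0.352 without day 4 sample 1). The Unc5c island, at chr3:141128155-141128647, had 2.46% and 1.63% at day 7, against 0.143% and 0% (0 of 413 reads, up to 0.726%) at day 4 (edgeR adjusted p = 0.0221, and 0.204 to 0.332 without day 4 sample 1, day 4 sample 2 or day 7 sample 1). The Fibcd1 island, at chr2:31701425-31701561, had 3.86% and 5.6% at day 7, against 0.26% and 0.483% at day 4 (edgeR adjusted p = 0.0302). It did not pass with autosomes alone in the edgeR fit (adjusted p = 0.111), by edgeR's quasi-likelihood test (0.107) or by limma (0.212). With 1 sample of day 4 or day 7 left out, its difference was 3.49 to 5.23 points. Fibcd1 codes for a receptor that binds chitin. The island of the predicted gene Gm46864 was called as well. All 4 stayed below 6% in every sample.

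The largest differences that did not pass the test were in islands that were partly methylated from the start. At chr7:91031329-91031857 the level was 13.9% and 10.3% in the day 0 samples, 8.61% and 10.6% in those of day 4 and 22.5% and 19% in those of day 7 (edgeR adjusted p = 0.324 for day 7 against day 4). The first 25% of its cytosines carried most of this, with 57.7% and 70.6% at day 7 against 43% and 50.5% at day 4, while the last 25% had 1.16% and 5% at day 7 against 0% and 0% at day 4. The lowest day 7 minus day 4 difference was at chr12:24781828-24781966, with 7.02% and 5% at day 7 against 17% and 11.2% at day 4 (edgeR adjusted p = 0.461). At chr7:53088830-53088980 both day 7 samples had 0 methylated reads, of 229 and 82 reads (up to 1.31% and 3.66%), against 3.11% and 3.4% at day 4 (edgeR adjusted p = 0.0644, and 0.0214 where every run had at least 50 reads per sample). No island passed in the downward direction in the fit with at least 10 reads.

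Genes of matched islands were grouped by known role from their symbols. The median of day 7 minus day 4 was 0.970 points over all islands and 1.03 points for 14 islands of immune signalling genes, 0.944 for 14 of blood transcription factors, 1.20 for 26 of chromatin genes, 0.861 for 23 of RNA processing and translation genes, 0.925 for 12 of chaperones, 0.772 for 16 of cell cycle genes and 1.19 for 31 of developmental and neural genes. Each day 7 sample exceeded each day 4 sample in 8 of the 14 immune islands, 10 of the 14 of blood factors, 19 of the 26 of chromatin genes, 14 of the 23 of RNA genes, 10 of the 12 of chaperones, 9 of the 16 of cell cycle genes and 14 of the 31 of developmental and neural genes. The share was 60.1% over the 639 islands with a matched promoter and 56.9% over all islands. The immune, RNA and cell cycle lists lay at 57.1%, 60.9% and 56.3%. The blood factor, chromatin and chaperone lists lay at 71.4%, 73.1% and 83.3%, and the developmental and neural list at 45.2%. The lists hold 12 to 31 islands each, and the differences between them were not tested. Of these islands only that of Unc5c was called with no minimum difference, where 4 of the 639 matched islands, 1.01% of all islands and 0.729% of all runs were.

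Immune and blood genes were at low levels at every stage. All 14 immune islands and all 14 blood factor islands were below 5% in every sample. So were 610 of the 639 matched islands, and all 23, 12 and 16 islands of the RNA, chaperone and cell cycle lists. The rule itself asked for low day 0 levels, so low levels are no trait of immune and blood genes. The Batf3 island, at chr1:192922228-192922609, had 1.09% and 1.81% (day 0), 0.741% and 0% (day 4) and 2.61% and 0.833% (day 7), so its days overlapped; the sample at 0% had 360 reads, which allow up to 0.833%. The island of Irf1, an interferon-induced transcription factor, at chr11:53583638-53583836, had 0.309% and 0% in the day 0 samples, 0% and 0% in those of day 4 and 0.971% and 0% in those of day 7. Its samples at 0% had 143 to 259 reads, which allow up to 2.1% to 1.16%. The Nfkb2 island, at chr19:46378956-46379211, had 0.251% and 0.602% (day 0), 0% and 0% (day 4, up to 0.875% and 1.11%) and 2.17% and 1.09% (day 7). Its day 7 samples lay above all others, and its edgeR adjusted p for day 7 against day 4 was 0.0659. The island of Elf1, an ETS factor of blood cells, had 2.75% and 3.62% at day 7 against 0.597% and 0.239% at day 4 (edgeR adjusted p = 0.065). The island of H2-D1, a classical MHC class I heavy chain, had 1.74% and 1.03% at day 7 against 0.273% and 0% at day 4 (edgeR adjusted p = 0.236).

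From the chaperone and chromatin lists, 3 islands were picked after their values were seen. One lay between Hspd1 and Hspe1, mitochondrial chaperonin genes that share a promoter, and had 0.341% and 0.507% (day 0), 1.22% and 0.373% (day 4) and 1.52% and 1.95% (day 7). The island of Uhrf1, which guides maintenance methylation, had 0.442% and 0% in the day 0 samples, 1.31% and 0% in those of day 4 and 0.971% and 0.704% in those of day 7, with overlapping days. The island of Hmgb1, a chromatin protein, had 4.41% and 2.88% at day 7 against 0.293% and 0.395% at day 4 (edgeR adjusted p = 0.0851).

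In the developmental and neural list, 23 of 31 islands were below 5% in every sample, where 610 of the 639 matched islands were. Its median levels were 2.19% and 1.97% at day 7, against 1.77% and 1.46% over the matched islands. The Gbx2 island had 10.1% and 17.8% (day 0), 13.3% and 8.29% (day 4) and 13.9% and 10.3% (day 7). The island of Kcnn1, a calcium-activated potassium channel, had 14.2% and 11.3% in the day 0 samples, 14.4% and 10% in those of day 4 and 16.4% and 7.94% in those of day 7. The island of Wnt11, a Wnt ligand, had 0% in both day 7 samples (267 and 52 reads, up to 1.12% and 5.77%), against 1.26% and 0.459% at day 4 (edgeR adjusted p = 0.416). The list was made from symbols with these levels known, so the difference was not tested.

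The edges of islands averaged higher than their centres. Edges were the first and last 25% of an island's cytosines by order, each called an end segment, and the centre was the rest; 1981 islands had at least 10 reads in both parts of every sample. The mean centre level was 0.785% and 1.01% (day 0), 1.05% and 0.907% (day 4) and 2.13% and 1.92% (day 7). The mean edge level was 1.15% and 1.36% in the day 0 samples, 1.40% and 1.25% in those of day 4 and 2.51% and 2.30% in those of day 7. Centre minus edge was therefore -0.366 and -0.350 points (day 0), -0.354 and -0.343 points (day 4) and -0.380 and -0.386 points (day 7), with a mean of -0.363 points. The edges were higher in all 6 samples. Over the 4 later samples, which the choice of islands did not use, the mean was -0.366 points (exact two-sided sign-flip permutation p = 0.125, the smallest that 4 samples allow). The ends are those of a run of listed cytosines, which may lie inside a longer CpG island.

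The gap between centre and edge was wide in few islands. Day 7 minus day 4 of the gap was -0.0345 points (exact permutation p = 0.333, the smallest that 2 against 2 allows), and with 1 in 3 cytosines at each end as edges it was 0.0013 points. The median per-island difference, averaged over the 6 samples, was -0.0217 points. Over the later 4 samples the edges were higher in 1103 islands (55.7%) and the centre in 878. Edges were higher by more than 5 points in 48 islands and the centre in 2; by more than 10 points the counts were 16 and 1.

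Where one edge was high, it was usually a single side, which the rule itself favours. With at least 10 reads in each end segment, centre and sample, 1859 islands could be read by side. In 16 of them an end segment was at 20% or more over the later samples with the centre below 10%, and in 14 of the 16 the other end segment was below 10%. No island had both end segments at 20% or more with a centre below 10%, and none had a centre at 20% or more between end segments below 10%. The rule kept whole runs below 20% at day 0. That leaves less room for both ends, or for the centre, to be high than for a single end. These counts therefore follow in part from the choice of islands. The high segments of the 16 averaged 30.9% and 30.1% (day 0), 34.9% and 34.7% (day 4) and 33.1% and 36.8% (day 7); these islands were chosen by the later values, so the levels are a description. Of the 16, 4 were matched to promoters, those of Tasor, Nbl1, Gbx2 and Kcnn1; of the 3 matched on 1 strand, Nbl1 and Gbx2 were high on the upstream side and Kcnn1 was high on the downstream side.

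The Tasor island is an example. Its first segment, the side upstream of Tasor, had 49.5% and 45.5% in the day 0 samples, 57.4% and 45.1% in those of day 4 and 45.8% and 45.7% in those of day 7. The centre stayed at or below 2.56% and the other end segment at or below 5.26% in every sample. Over the 6 samples together, the CpGs 313, 276, 269 and 212 bases before the Tasor start stood at 59.3%, 78.8%, 62.2% and 46.5%, the CpG 175 bases before it at 11.3%, and every listed CpG nearer the start at 2.94% or less. In the printed sequence these are the first capital pair (position -212), the second (-175) and those after it. The same island was matched to Gm52095, a predicted gene on the other strand.

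The Nbl1 and Gbx2 islands were also high upstream and lower at the start. In the Nbl1 island, at chr4:138648895-138649264, the upstream segment had 41.5% and 52.2% (day 0), 46.5% and 51.4% (day 4) and 42.6% and 71.4% (day 7), and the segment at the start had 2.56% and 2.86% at day 0 and 0% in the other 4 samples. In that segment the 4 samples at 0% had 70 and 35 (day 4) and 35 and 20 (day 7) reads. The CpG 380 bases before the Nbl1 start stood at 74.2% over the 6 samples. Those at -205, -202 and -195 stood at 21.2%, 7.84% and 35.3%, so the fall was uneven. All those from -53 to the start stood at 5.56% or less. In the Gbx2 island, at chr1:91827603-91828300, the upstream segment had 44.7% and 51.1% in the day 0 samples, 43.4% and 32.4% in those of day 4 and 39.5% and 36% in those of day 7. Its CpGs from -550 to -474 stood at 42.2% to 67.9% over the 6 samples, and those from -222 through the start to 148 bases after it at 7.41% or less. Between these stretches the levels were uneven, with 14.8% at -434 and 41.0% at -325. At day 7 the CpGs from 114 to 148 bases after the start stood at 11.1% to 16.7%, and the segment that holds them had 12.6% in day 7 sample 1, against 0% to 1.28% in the other 5 samples. The listed CpGs of the 3 islands rest on 44 to 127 reads each over the 6 samples.

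**Figure D2:**
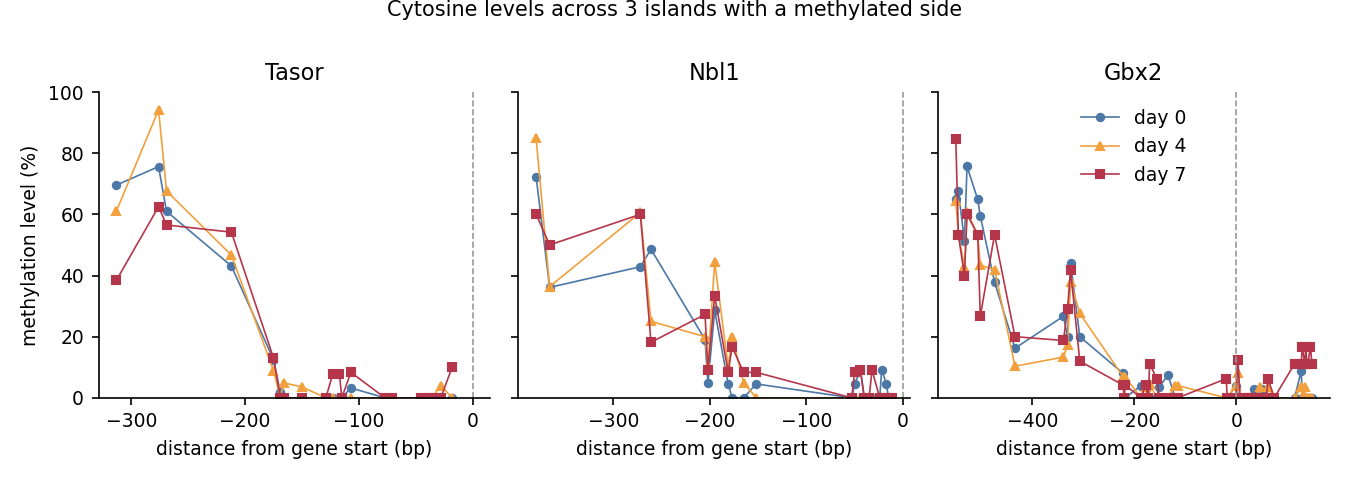
Level in percent of each listed CpG of the Tasor, Nbl1 and Gbx2 islands, both samples of a day pooled, against the distance in bp from the gene start (dashed line; negative is upstream). In each island the upstream end is high and the CpGs nearest the start are low on all 3 days.

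The widest gaps without a matched promoter were at chr6:3151348-3151557 and chr7:29062982-29063331, where the centre lay 35.0 and 29.2 points below the edges over the later samples. In the second, the last segment had 59.6% and 53.3% at day 7 and 77.6% and 54.9% at day 4, while its first segment had 0% in both day 7 samples. At chr11:98203712-98204394 both sides were raised, the first segment to 18.8% and 16.1% and the last to 33.9% and 33.3% at day 7, around a centre of 1.32% and 2%. The widest gap in the other direction was at chr11:102467239-102467469, where the centre had 23.4% and 20.4% at day 7, and the first segment 6.25% and 7.69%.

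Levels went on rising outside the islands. Listed cytosines 101 to 250 bp from an island end averaged 2.00% and 2.24% (day 0), 2.27% and 2.07% (day 4) and 3.55% and 3.28% (day 7). At 501 to 1000 bp they averaged 7.13% and 7.02% in the day 0 samples, 7.64% and 7.06% in those of day 4 and 8.66% and 8.61% in those of day 7. At 2001 to 5000 bp they averaged 40.8% and 39.3% (day 0), 42.0% and 41.0% (day 4) and 42.7% and 42.3% (day 7). These outside cytosines were not used to choose the islands, and the climb with distance was present in each of the 6 samples.

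**Figure D3:**
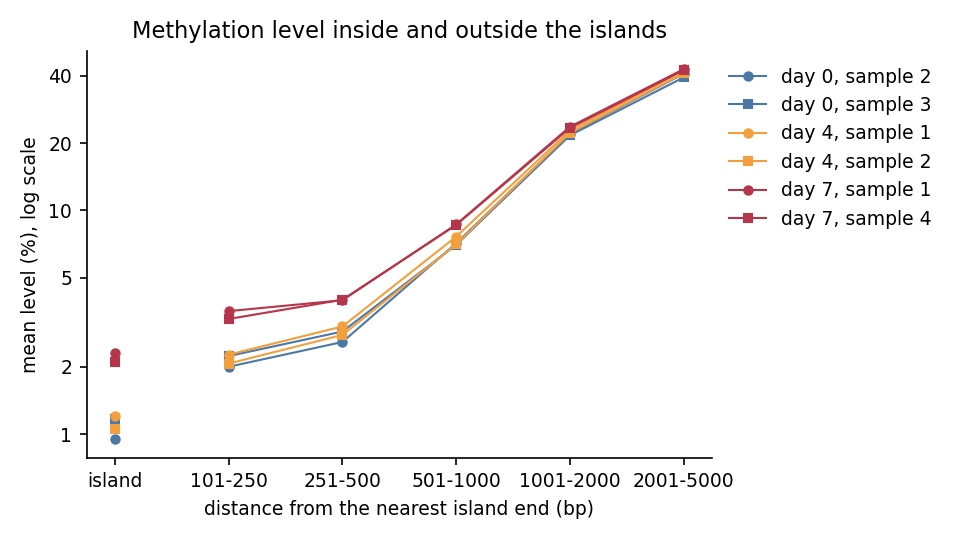
Mean level in percent (log scale) of the islands and of listed cytosines by distance in bp from the nearest island end, one line per sample. All 6 samples climb from means of 0.949% to 2.31% inside the islands to 39.3% to 42.7% at 2001 to 5000 bp.

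Cytosines at the enzyme cut site averaged higher than their neighbours in the same islands, a comparison chosen after the values were seen. In matched windows, 484 islands had both a CpG inside CCGG and another CpG outside CCGG and TCGA read in each sample. The CCGG sites averaged 1.10% and 1.28% in the day 0 samples, 1.90% and 1.34% in those of day 4 and 3.68% and 4.30% in those of day 7. The other CpGs averaged 0.510% and 0.740% (day 0), 0.736% and 0.614% (day 4) and 1.76% and 1.44% (day 7). The CCGG sites were higher in all 6 samples, by a mean of 1.67 points over the 4 later samples (exact two-sided sign-flip permutation p = 0.125, the smallest that 4 samples allow).

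The cut site was more frequent at the ends. In matched windows, 33.3% of outermost cytosines of a run lay in CCGG, against 4.31% of the rest. At day 7 the outermost cytosines in CCGG stood at 3.91% and 3.90%, and CCGG cytosines that were not outermost at 3.88% and 3.99%. The outermost outside CCGG stood at 1.81% and 1.71%, and all cytosines that were not outermost at 1.81% and 1.48%. The part of the cut site in the difference between centre and edge was not tested. The levels so far in this paragraph pool the reads of matched windows, and those that follow are means over islands. Over the whole set, the outermost cytosine at each end averaged 3.24% and 3.06% at day 7, against 2.05% and 1.87% from the 11th cytosine inward. In 6 bins of 50 bases, from 250 before to 50 after the gene start, the mean level per bin ranged from 0.447% to 0.753% and from 0.668% to 0.971% in the day 0 samples. It ranged from 0.64% to 1.02% and from 0.611% to 0.834% at day 4, and from 1.64% to 2.17% and from 1.57% to 2.1% at day 7.

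**Figure D4:**
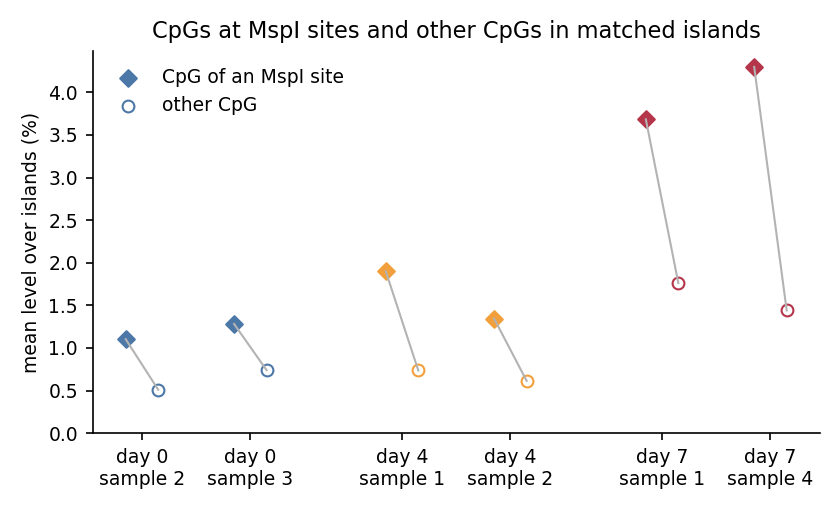
Mean level in percent over 484 islands of CpGs inside CCGG (filled diamonds) and of other CpGs (open circles) in each sample, joined by a line. The diamond lies above the circle in all 6 samples.

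Dense islands averaged lower than shorter unmethylated runs. The 21460 autosomal runs of 3 to 19 cytosines chosen by the same day 0 levels and reads averaged 1.99% and 2.11% in the day 0 samples, 2.31% and 2.16% in those of day 4 and 3.58% and 3.51% in those of day 7. Dense islands minus these runs was -1.27 and -1.41 points at day 7 and -1.10 and -1.10 points at day 4, a mean of -1.22 points (exact two-sided sign-flip permutation p = 0.125, the smallest that 4 samples allow). Mean day 7 levels by size were 4.73% for 3 to 4 cytosines, 3.53% for 5 to 9, 2.65% for 10 to 14, 2.29% for 15 to 19, 2.31% for 20 to 24, 2.11% for 25 to 29 and 1.93% for 30 to 39, and 2.36% for 40 or more. They differed most among the short runs, and the bins on either side of the size limit, at 2.29% and 2.31%, were close. At the limit itself islands of 20 cytosines lay above runs of 19, at 2.58% and 2.45% against 2.16% and 1.93% at day 7. The gap to runs of 10 to 19 cytosines alone was -0.316 points. Where both sets were limited to day 0 levels below 5%, the gap was -0.294 points. The share of islands above 10% at day 7 was 2.12% for 20 to 24 cytosines, 1.22% for 25 to 29, 0.82% for 30 to 39 and 3.2% for 40 or more. Among shorter runs it was 14.2% for 3 to 4 cytosines, 7.55% for 5 to 9, 3.15% for 10 to 14 and 2.07% for 15 to 19.

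A pair of very deep islands on chromosome 17 stood apart from the rest. They lie next to each other at chr17:39979946-39981735 (196 cytosines) and chr17:39981885-39985654 (374 cytosines), have the most cytosines of all islands and took 22.5% to 27.9% of all island reads in a sample. Reads per cytosine in the first were 595 and 494 (day 0), 641 and 438 (day 4) and 396 and 235 (day 7), against island medians of 16.1 and 12.6, 16.6 and 10.7, and 13.0 and 5.29. The level of the longer one was 9.59% and 11% in the day 0 samples, 10.7% and 12.4% in those of day 4 and 11.5% and 20.7% in those of day 7, so day 7 sample 4 was high and day 7 sample 1 was not (edgeR adjusted p = 0.75 for day 7 against day 4). Another 2 islands had over 5 times the median depth over the 6 samples together, chr5:147072623-147072870 and chr6:3151348-3151557; in day 7 sample 1 the second had 21.3 reads per cytosine, where the median was 13.0. Reads from many copies of a sequence could be counted at such places, so their levels are uncertain.

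These deep islands decide any value taken over total reads. Total methylated reads over total reads of all islands gave 4.44% and 7.63% at day 7, against 3.89% and 4.47% at day 4. Without the 4 deep islands the values were 2.21% and 1.95% at day 7, against 1.15% and 1.02% at day 4. The gap to shorter runs over total reads was 2.59 points with them, the reverse of the mean over runs, and -0.91 points without runs of that depth. Every sample read 2774 island cytosines, in 327 islands, at least 10 times. Of these, 31 were at 20% or more in all 4 later samples, and they lay in 3 islands. The chromosome 17 pair held 27 of them and the chromosome 6 island 4. This read minimum left out most of the 52855 island cytosines, so other islands can hold methylated CpGs, as those of Tasor, Nbl1 and Gbx2 do.

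The limit of 20% at day 0 left islands close to it on either side. Just inside were chr6:3151348-3151557 with 17.5% and 19.5% at day 0, chr14:55531014-55531276 with 19.8% and 16.3%, and chr7:29062982-29063331 with 15.5% and 19.9%. Just outside were chr3:94977088-94977434 with 20.6% and 16.5%, and chr19:61301396-61302178 with 22.4% and 15.9%. On the size limit, 296 islands of 20 cytosines averaged 2.58% and 2.45% at day 7, and 325 runs of 19 cytosines with the same levels and reads averaged 2.16% and 1.93%. Here the islands were higher, the reverse of their difference from all shorter runs. The highest mean over the later days was at chr13:31903217-31903542, with 18.1% and 33.9% at day 7 against 19.9% and 23.2% at day 4, where the last segment had 63.4% and 73.3% at day 7 and the first segment 3.57% and 5.56%.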

How the data were processed

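The deposited table gives, for each cytosine and sample, the count of methylated and of unmethylated reads, made by the authors from RRBS libraries; its columns are named in the file header. Beside the counts the authors deposited a fraction, methylated reads over all reads, which was not used. DNA was cut with TaqI and MspI in separate aliquots that were pooled before bisulfite conversion, per the labels' protocols. Bismark, Bowtie2 and the mm9 build are named in the submitters' processing notes; the version of each, trimming and duplicate handling were not given there or in the labels. Cytosines at most 100 bp apart were joined into runs, and counts were summed per run and sample.

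Runs of at least 3 cytosines with at least 10 reads in every sample were tested with edgeR 4.0.16 (R 4.3.3; likelihood ratio test, methylation by day with a term per sample, the 6 samples sharing the spread), after a check on simulated data. Alternatives were the quasi-likelihood test, limma 3.58.1 (pseudocount 0.5), Fisher's exact test after pooling each day's reads, other minimum differences, read minimums, gaps, sizes and edges, and leaving out each sample. Means over islands were compared with exact permutation tests over samples (Python 3.11.15, scipy 1.17.1). Tests within islands use the 4 later samples; a planned test over all 6 is not given, since the day 0 samples chose the islands. Islands named in the text were the 5 with the most cytosines, the highest later levels, the largest differences of either direction between the later days, the widest differences between centre and edge, any called island, and those at the limits of the rule; islands of listed genes were added after their values were seen. Matching promoters by CpG spacing and comparing cut sites and single sides were also chosen after the values were seen, in place of the overlap with an mm9 annotation that had been planned. Of promoter windows matched at 12 cytosines, 100% lay on the chromosome RefSeq gives; at 8 it was 96.1%. The islands and gene lists were chosen with earlier results of these data known. Where no read was methylated, the stated limit is 3 reads of the total; such limits and the intervals cover counting error only, since reads carry no molecular identifiers.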

Additional observations from a re-analysis of the deposited data

Results flagged for a closer look

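Signal outside the autosomal islands was higher at day 7. The 12 X runs that meet the same rule averaged 20.1% and 19.7% at day 7, against 1.42% and 0.919% at day 4; their day 0 levels, 0.925% and 1.01%, chose them and are a description. The 31 mitochondrial cytosines had 2.27% (Wilson 95% interval 1.75% to 2.96%) and 1.76% (1.49% to 2.08%) in day 7 samples, against 0.547% and 0.490% in day 0 samples, whose intervals reached 0.934% and 0.964%. These values belong to no comparison between islands, and their part in the island differences was not tested.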

How the results depend on the processing

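For day 7 against day 4, 0 islands were called at 20 points, 4 with a minimum of 5 points and 20 with none. The shares of all runs were 0.451%, 0.656% and 0.729%, and those under the other tests stand beside the counts given earlier. The 20 became 8 with the quasi-likelihood test, 1 with limma, 4 with autosomes alone, 80 with at least 50 reads, 123 with Fisher's exact test, and 2 to 20 with 1 sample left out. For day 7 against day 0, the 34 islands called with no minimum became 8 with the quasi-likelihood test, 0 with limma, 4 with autosomes alone, 158 with at least 50 reads, and 1 to 34 with 1 sample left out. For day 7 against day 0 the share of all runs was 0.838% in the main fit. It was 0.406% with the quasi-likelihood test, 0.0945% with limma, 0.0635% with autosomes alone and 5.36% with at least 50 reads. Centre minus edge was -0.363 points as a mean and -0.0217 points as a median, -0.366 points over days 4 and 7 alone, and -0.367 to -0.359 points with 1 sample left out. Day 7 minus day 4 of that gap turned to 0.0013 points with 1 in 3 cytosines at each end as edges. Dense islands minus shorter runs turned to 2.59 points over total reads, and it was -0.91 points, an alternative chosen after seeing the data, without the deepest runs; with day 0 levels below 5% it was -0.294 points, and -0.316 points against runs of 10 to 19 cytosines. The island at chr16:17201327-17201647 gave differences of 0 to 3.01 points with 1 sample left out. Except where a value above bears on it, the cause was not tested. The mean difference between day 7 and day 4 stayed positive under its 14 alternatives, at 0.969 to 1.85 points.

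No paired analysis was possible because any 2 days share at most 1 replicate number. With 2 samples a day no permutation test between days can pass 0.05, day 7 sample 4 had a median of 132 reads per island, and differences of a few reads per island are at the limit of what these libraries can show.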
